A study of Macaca fascicularis with 16 samples.

Results

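The results below compare peripheral blood mononuclear cells (PBMC) taken 2 hours after the antibody NKTT320 with PBMC of the same animals taken 30 minutes after it. The members are the 4 libraries titled as 2 hours and the 4 titled as 30 minutes after NKTT320, which is 8 of the 16 libraries of the series, and no library from before dosing enters. NKTT320 is a monoclonal antibody against the invariant chain of the antigen receptor carried by invariant natural killer T (iNKT) cells. The question of the study was how the antibody activates iNKT cells in vivo. Both groups hold the same animals, LG04, LG11, LG12 and LG15, cynomolgus macaques (Macaca fascicularis) of Mauritian origin. All of them received NKTT320, so by design the groups differ in time after dosing. The antibody, the passing of time and repeated bleeding cannot be told apart. Libraries also differed in depth and in neutrophil and platelet RNA, as given below. Untreated animals were not analysed here, and the labels used here give no age, dose or genotype. The cells were separated from EDTA blood on a density gradient, frozen without sorting, and read as stranded total RNA after removal of ribosomal RNA.

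As background, iNKT cells are scarce lymphocytes whose receptor binds lipids held by CD1d, and they can release cytokines within hours of stimulation. Those cytokines act on NK cells, monocytes, dendritic cells and B cells, so a response in blood need not be in the iNKT cells themselves. Leukocyte types also enter and leave the blood within hours. In RNA of unsorted cells, fewer cells of a type and less RNA per cell cannot be told apart.

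Libraries held 1890190 to 8582852 counts; the shallowest were LG15 at 2 hours (1890190) and LG12 at 30 minutes (1960744). Levels are given as CPM, counts relative to the library total (scaled with edgeR's TMM factor and set to a total of 1000000), and 3 counts were worth 0.343 to 1.43 CPM. A principal component analysis set animals apart more than times: component 1 took 58.6% of the variance, and differences among animals made up 95.9% and differences between times 1.78% of that component. Globin genes took 37.4% and 47.7% of the counts of LG04 at 30 minutes and 2 hours, and 0.0249% and 0.025% of those of LG12. The LG12 libraries also stood apart in monocyte RNA: the 18 monocyte markers summed to 421 and 1682 CPM in LG12, against 3243 to 5664 CPM at 30 minutes and 7038 to 7099 CPM at 2 hours in the other animals. Defining markers of T cells (CD3E), B cells (MS4A1), NK cells (NCAM1) and monocytes (CD163) were present at both times in all 4 animals. CD14 stood at 0.809 CPM (2 counts) in LG12 at 30 minutes, and the dendritic-cell marker IL3RA and the platelet marker GP1BB were listed at 0 in all 8 libraries.

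With each animal as its own control, myeloid, NK-cell and cytotoxic genes were higher at 2 hours than at 30 minutes, and T-cell and B-cell genes were lower, but no single gene passed the main test. edgeR's quasi-likelihood test called 0 of 11129 genes at an adjusted p under 0.05 (0% of genes in each direction), and the smallest adjusted p was 0.412. At an unadjusted p under 0.05 there were 887 genes, 525 higher (4.72% of all tested) and 362 lower (3.25%); without LG15 there were 580. DESeq2, run on the same libraries and genes, called 25 genes, 17 higher (0.189% of the 8971 genes to which it gave an adjusted p) and 8 lower (0.0892%). The limma-voom test called 0. Over all genes the median log2 fold change was 0.01, and 51.8% of genes lay above 0. In what follows "higher" and "lower" give the direction of a value, and "called", for a named gene, is kept for DESeq2. DESeq2 was an alternative to the main test, and each gene it called had an edgeR adjusted p of at least 0.412 in the main fit. Log2 fold changes are 2 hours against 30 minutes, from edgeR, with a standard error (SE), and CPM values are listed in the order LG04, LG11, LG12, LG15.

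**Figure D1:**
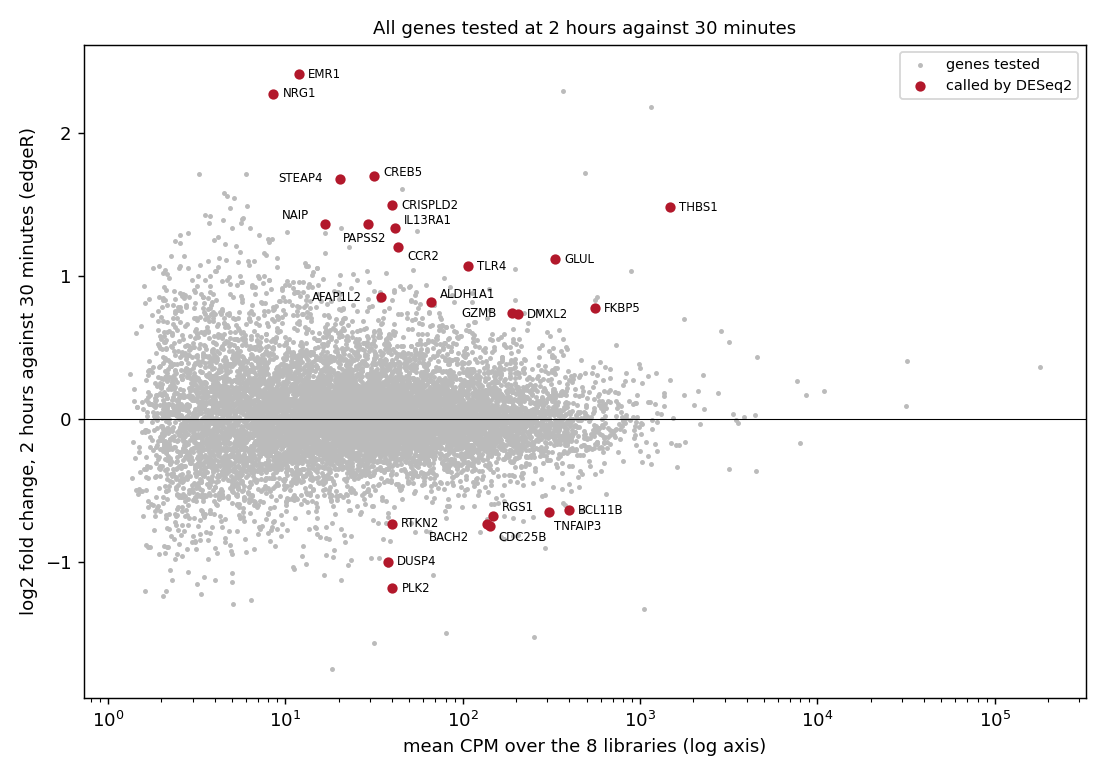
Log2 fold change of each of the 11129 genes tested, 2 hours against 30 minutes (vertical axis, edgeR), against its mean CPM over the 8 libraries (horizontal log axis). The 25 genes called by DESeq2 are in red, 17 above and 8 below the zero line, while the median of all genes is 0.01.

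Myeloid genes led the higher side. EMR1, which encodes the adhesion receptor known in mice as F4/80, stood at 6.44, 4.67, 0 and 3.86 CPM at 30 minutes and at 33.7, 15.7, 2.46 and 28.6 CPM at 2 hours. It was higher at 2 hours in 4 of 4 animals, but the level of LG12 at 2 hours lay below that of the other animals at 30 minutes, so the groups overlap. Its log2 fold change was 2.41 ± 0.31 (SE), with an edgeR adjusted p of 0.412 in the main fit, and DESeq2 called it (adjusted p = 2.49e-05). Over the 17 alternatives that gave EMR1 a value the adjusted p ran from 2.7e-08 to 1. The lowest came from edgeR without the filter on low counts, which called 157 genes. The newer quasi-likelihood method of edgeR without the filter called 0. CCR2, the receptor by which classical monocytes follow the chemokine CCL2, stood at 23.8, 49.9, 6.07 and 30.2 CPM and then at 58.5, 83.6, 20.1 and 74.0 CPM. Every animal had more CCR2 at 2 hours, by 1.20 ± 0.17 on the log2 scale (DESeq2 adjusted p = 0.000604). The edgeR adjusted p of CCR2 was also 0.412 in the main fit. Over the alternatives the adjusted p ran from 2.91e-05 (again without the filter) to 1. TLR4, the lipopolysaccharide receptor, stood at 81.6, 139.5, 8.49 and 72.8 CPM and then at 186, 194.9, 37.2 and 137 CPM, a log2 fold change of 1.07 ± 0.22, and it too was called by DESeq2.

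The scavenger receptor CD163, a marker of monocytes and macrophages that takes up haemoglobin bound to haptoglobin, stood at 133.5, 390.6, 5.26 and 153.3 CPM at 30 minutes and at 629, 702, 153 and 760.3 CPM at 2 hours. The 3 animals other than LG12 ended between 629 and 760.3 CPM, and LG12 started at 5.26 CPM. The log2 fold change was 2.29 ± 0.48, and DESeq2 did not call it (adjusted p = 0.0871). The edgeR adjusted p of CD163 was 0.412 in the main fit. Over the alternatives the adjusted p ran from 2.65e-09 (without the filter on low counts) to 1. VCAN, which encodes the proteoglycan versican made by classical monocytes, went from a mean of 616 ± 600 CPM (SD, n = 4) to 1679 ± 907 CPM, with a log2 fold change of 2.18 ± 0.55. The lectin gene FCN1 (1.31 ± 0.45) and the lipopolysaccharide co-receptor gene CD14 (0.95 ± 0.47) were higher in 3 of 4 animals. Each held 2 counts in LG12 at 30 minutes.

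Of the 18 monocyte markers, 17 lay above 0, 8 of them at an unadjusted p under 0.05 (44.4% of the list, against 4.72% of all genes) and 7 in 4 of 4 animals (background 8.43%). The median log2 fold change was 0.66. The mean difference was 0.67 in LG04, 0.13 in LG11, 2.37 in LG12 and 0.70 in LG15, so LG12 carried much of the size and LG11 little of it. Without LG12 the median was 0.40, and without LG15 the number of markers at an unadjusted p under 0.05 was 5. The groups overlapped for 18 of the 18. CSF1R, the receptor of the growth factor that maintains monocytes, was higher at 2 hours in 2 animals and lower in the other two (0.50 ± 0.30).

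**Figure D2:**
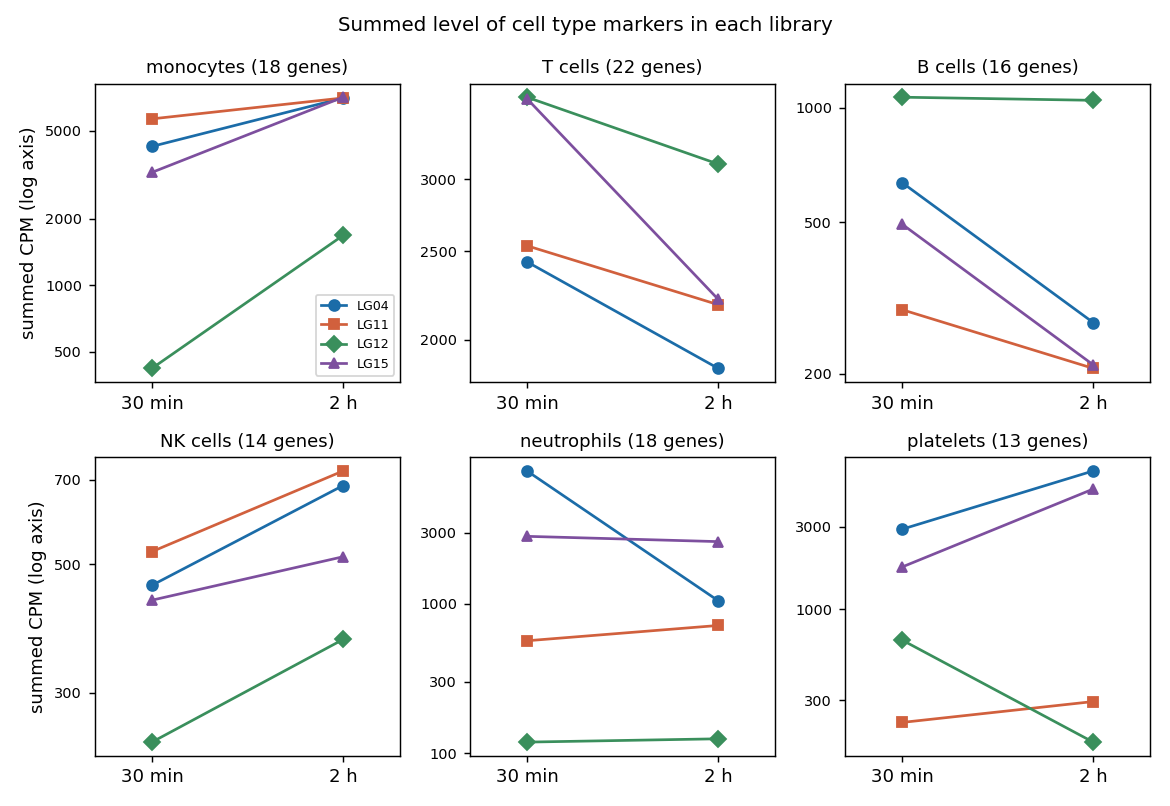
Summed CPM of the markers of 6 cell types (log axes) at 30 minutes and 2 hours, with a line for each animal. Monocyte and NK-cell sums are higher at 2 hours in 4 of 4 animals and T-cell and B-cell sums are lower in 4 of 4, while neutrophil and platelet sums go different ways in different animals.

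Genes of innate sensing were higher together. Toll-like receptors (TLRs) recognise microbial molecules and, like the interleukin 1 receptor, signal through the adaptor MYD88 and IRAK kinases. All 16 of the Toll-like receptor and interleukin 1 receptor genes tested lay above 0, with a median of 0.55, and 9 had an unadjusted p under 0.05. The mean difference was above 0 in each animal: 0.48, 0.29, 0.85 and 0.63 in LG04, LG11, LG12 and LG15. MYD88 stood at 54.6, 76.9, 19.0 and 50.1 CPM and then at 87.8, 99.8, 46.6 and 84.5 CPM (0.75 ± 0.16). IL1RAP, the shared accessory chain of interleukin 1 family receptors, stood at 36.0, 67.5, 31.1 and 35.1 CPM and then at 109.2, 96.0, 39.4 and 83.1 CPM (0.94 ± 0.22). In both genes every animal was higher at 2 hours, and the groups overlapped because of LG12. Receptors of lipoproteins followed, with TLR2 at 0.86 ± 0.24, TLR6 at 0.77 ± 0.22 and TLR1 at 0.53 ± 0.16. So did the flagellin receptor TLR5 (0.73 ± 0.23, with 2 counts in LG12 at 30 minutes) and the inhibitory kinase IRAK3 (0.46 ± 0.15). IRAK2 (0.02 ± 0.17) and IRAK4 (0.15 ± 0.17) were close to the median of all genes.

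Receptors for antibody and complement gave a median of 0.53, with 8 of 10 tested members above 0, 5 of them at an unadjusted p under 0.05. The IgA receptor gene FCAR stood at 29.9, 37.2, 1.62 and 29.0 CPM and then at 34.6, 67.2, 8.22 and 85.9 CPM (1.02 ± 0.27). FCGR2B, the inhibitory IgG receptor, gave 0.83 ± 0.23, and C5AR1, the receptor of complement fragment C5a, 0.93 ± 0.32. The complement receptor CR1 was the member lower at an unadjusted p under 0.05 (-0.44 ± 0.15, 4 of 4 animals). Without LG12 the median of the list was 0.22. Among scavenger receptors, MSR1 gave 1.3 ± 0.44, with 0 counts in LG12 at 30 minutes. STAB1 gave 0.97 ± 0.33 and was higher in 3 of 4 animals, and the median of the 6 tested members was 0.88. Of these 4 had an unadjusted p under 0.05, against 1 without LG04 and 2 without LG15.

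All the gene lists were written with earlier results on these data known, and a set of 4 genes with CREB5 was put together after such results. The direction of this set, or of another list, is thus not independent evidence. CREB5 encodes a transcription factor of the CREB family, STEAP4 a metalloreductase, KCNJ2 a potassium channel and NRG1 a growth factor that binds ERBB receptors. CREB5 stood at 15.4, 27.6, 3.64 and 12.5 CPM at 30 minutes and at 57.3, 49.7, 7.4 and 79.7 CPM at 2 hours (1.70 ± 0.31). STEAP4 stood at 10.7, 17.4, 1.21 and 9.22 CPM and then at 33.4, 27.5, 6.16 and 56.8 CPM (1.68 ± 0.33). Both were higher in each animal, least in LG11 where the 30 minute level was highest. NRG1 (2.27 ± 0.34) and KCNJ2 (0.94 ± 0.33) were also higher in 4 of 4 animals, but held 1 and 2 counts in LG12 at 30 minutes. DESeq2 called CREB5, STEAP4 and NRG1 but not KCNJ2.

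Other genes that DESeq2 called higher have varied roles. FKBP5, a co-chaperone of the glucocorticoid receptor whose gene that receptor induces, stood at 245.6, 706, 389 and 329.7 CPM and then at 399, 1014, 819 and 573 CPM (0.77 ± 0.14). It was higher in each animal, by 0.52 on the log2 scale in LG11 and up to 1.07 in LG12 (DESeq2 adjusted p = 0.000604; 0.000604 to 1 over the alternatives). THBS1, which encodes thrombospondin 1 of platelets and monocytes, stood at 775, 1707, 147 and 636 CPM and then at 3867, 2242, 409 and 2083 CPM (1.48 ± 0.30). Its log2 difference was 2.32, 0.39, 1.47 and 1.71 in the 4 animals, and the mean difference of the platelet markers was 1.20, -0.04, -2.17 and 1.18; the part of platelets in this gene's difference was not tested. Glutamine synthetase (GLUL, 1.11 ± 0.27), the interleukin 13 receptor chain IL13RA1 (1.34 ± 0.33), the inflammasome sensor NAIP (1.36 ± 0.29), the secreted protein gene CRISPLD2 (1.5 ± 0.35) and the retinaldehyde dehydrogenase ALDH1A1 (0.82 ± 0.15) were higher in 4 of 4 animals. So was DMXL2, which encodes a regulator of the vacuolar proton pump (0.73 ± 0.15). PAPSS2, which encodes an enzyme that makes the sulfate donor of the cell, was called (1.37 ± 0.24) but stood at or below 1 CPM in LG11 and LG12 at both times. The adaptor gene AFAP1L2 stood at 21.5, 28.0, 29.1 and 20.6 CPM and then at 40.6, 43.9, 43.6 and 49.2 CPM (0.85 ± 0.16). It is one of 41 genes (0.368%) whose 2 hour levels all lay above all 30 minute levels. RGS9, a regulator of G-protein signalling, is another (0.71 ± 0.14), but DESeq2 did not call it (adjusted p = 0.0508).

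Monocyte marker levels differed between the times in the same direction as the myeloid genes above, with sums of 421 to 5664 CPM at 30 minutes and 1682 to 7099 CPM at 2 hours. The mean level of the monocyte markers was added to the fit as an alternative. The monocyte list is then close to 0 by construction, and the scavenger receptor list shares CD163 and CD36 with the covariate. Of the other lists, the Fc and complement receptor median was 0.038, with 0 genes higher at an unadjusted p under 0.05. The cytotoxic granule median was 0.23 (4 higher, against 7 in the main fit) and the Toll-like receptor median 0.30 (2 higher, against 9). The CREB5 set gave 1.33 (2 higher, against 4) and the NK-cell list 0.66 (8 higher, against 9). Medians of other cell types moved too, from 0.40 to 1.66 for platelets, 0.27 to -0.78 for red cells and 0.38 to -0.34 for dendritic cells. The covariate differs between the times in each animal, so this fit leaves less of the time difference to estimate. Log2 fold changes over all 18 alternatives ran from 0.88 to 1.39 for CCR2, from 0.49 to 1.3 for TLR4 and from 0.55 to 0.86 for FKBP5, and over the 17 that gave EMR1 a value from 1.46 to 2.70.

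**Figure D3:**
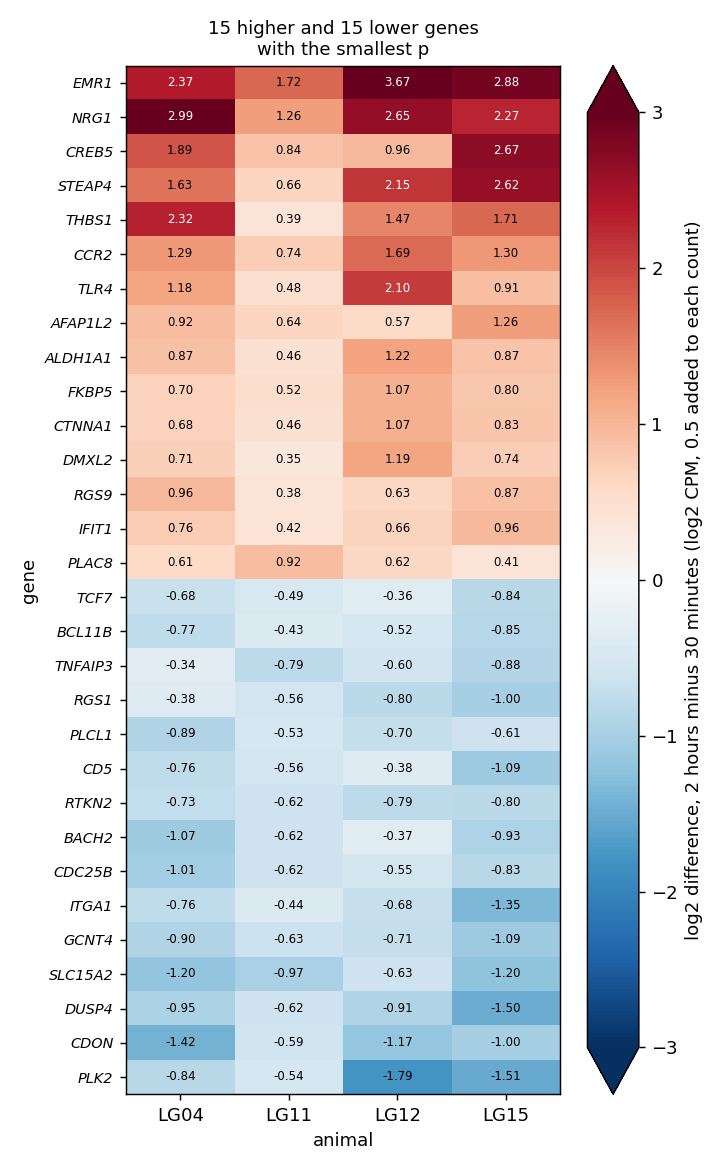
Log2 difference between 2 hours and 30 minutes in each animal (columns, log2 CPM with 0.5 added to each count) for the 15 higher and 15 lower genes (rows) with the smallest p among genes of the same direction in 4 of 4 animals and a mean of at least 10 CPM at either time. LG11 has smaller differences than the other animals in most of the higher genes, and PLK2 spans -0.54 in LG11 to -1.79 in LG12.

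NK-cell and cytotoxic genes were higher as well. All 12 tested NK-cell markers lay above 0, with a median of 0.62, 9 at an unadjusted p under 0.05 and 8 in 4 of 4 animals. The mean difference was 0.86, 0.65, 0.78 and 0.44 in LG04, LG11, LG12 and LG15. NCR1, the activating receptor NKp46, stood at 7.34, 11.9, 8.49 and 11.7 CPM at 30 minutes and at 25.1, 17.5, 18.9 and 20.5 CPM at 2 hours, with no overlap (1.05 ± 0.23). NCAM1, the CD56 molecule, stood at 8.77, 19.3, 2.83 and 17.1 CPM and then at 27.7, 20.9, 26.9 and 41.1 CPM (1.33 ± 0.39). Its 2 hour levels all lay above the 30 minute levels, although by little in LG11. KLRC3 (0.90 ± 0.22) and SH2D1B (0.71 ± 0.27) did not overlap either, which makes 4 of 12 markers against 0.368% of all genes. The inhibitory receptor chain KLRD1 gave 0.66 ± 0.15, KLRF1 0.48 ± 0.17 and the transcription factor gene EOMES 0.46 ± 0.17. Without LG11 4 NK-cell markers had an unadjusted p under 0.05. NK-cell sums ran from 247 to 526 CPM at 30 minutes and from 371 to 725 CPM at 2 hours.

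Cytotoxic granules hold perforin, granzymes and granulysin, by which NK cells and killer T cells destroy targets. Granulysin (GNLY) stood at 44.4, 38.2, 30.3 and 45.0 CPM at 30 minutes and at 84.4, 65.6, 54.0 and 52.5 CPM at 2 hours (0.69 ± 0.15). The lowest level at 2 hours was above the highest at 30 minutes. Granzyme B (GZMB) stood at 118, 147.3, 103.9 and 200.6 CPM and then at 243.9, 292.8, 167 and 233.4 CPM (0.74 ± 0.16). It was higher in 4 of 4 animals, least in LG15, and DESeq2 called it (adjusted p = 0.049); its adjusted p ran up to 1 over the alternatives, and its reads can be shared with the near copy GZMH. Perforin (PRF1) gave 0.40 ± 0.12, GZMA 1.00 ± 0.36, the death ligand FASLG 0.72 ± 0.21 and the protease inhibitor CST7 0.42 ± 0.15. In all, 11 of 13 granule genes lay above 0, 7 of them at an unadjusted p under 0.05, with a median of 0.41. The mean difference was 0.53, 0.31 and 0.62 in LG04, LG11 and LG12 and 0.04 in LG15. Without LG12 4 had an unadjusted p under 0.05.

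**Figure D4:**
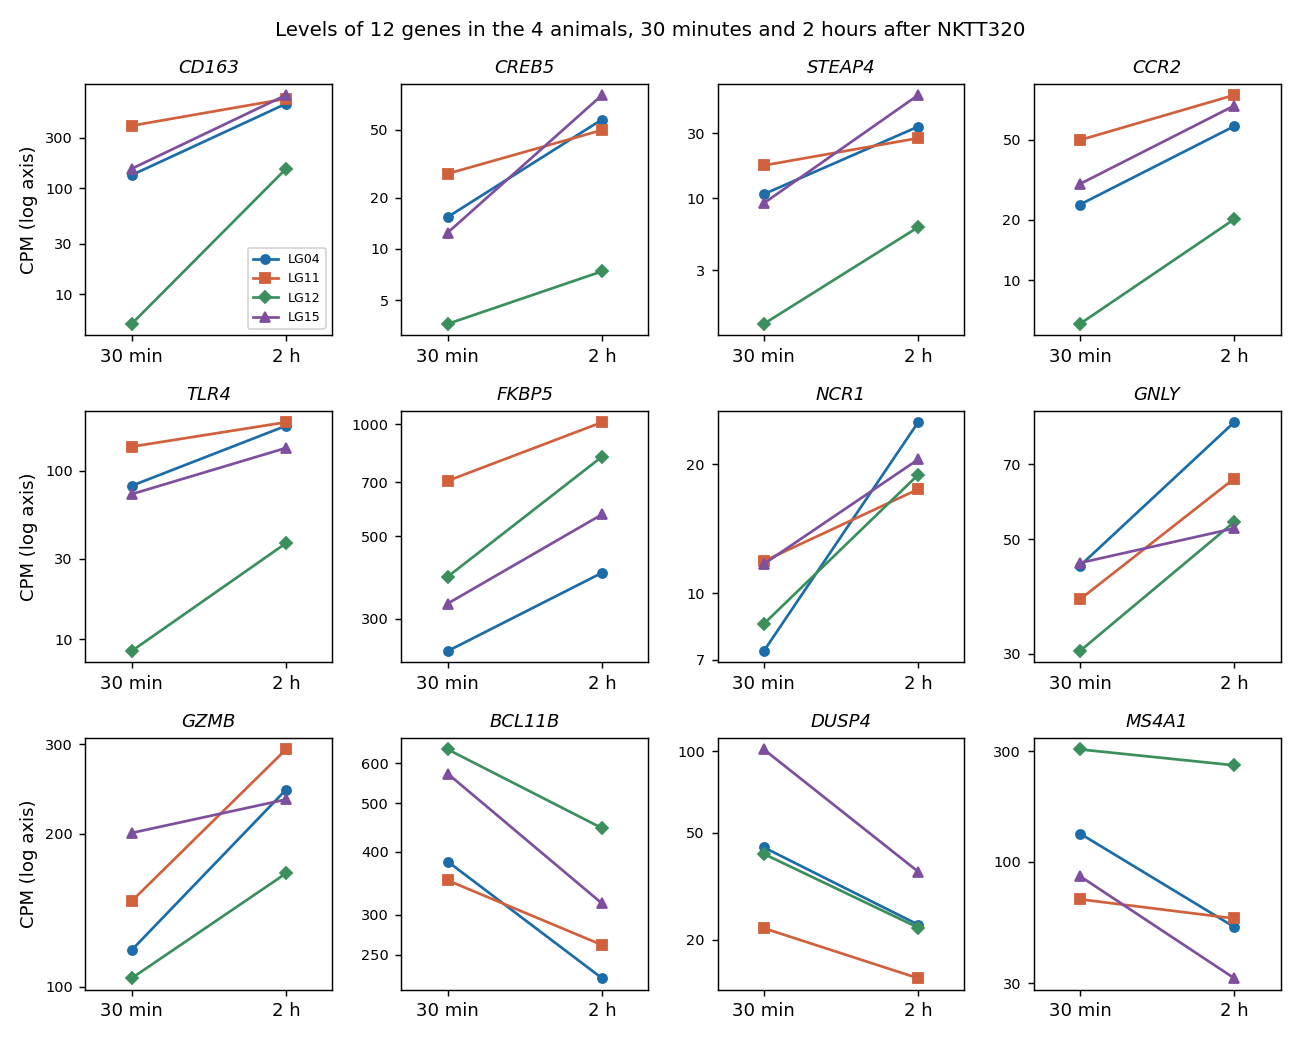
CPM (log axes, a scale for each gene) of 12 genes at 30 minutes and 2 hours, with a line for each animal. Of these, 9 are higher and 3 (BCL11B, DUSP4 and MS4A1) lower at 2 hours in 4 of 4 animals, and LG12 lies lowest in CD163, CREB5, STEAP4, CCR2 and TLR4.

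T-cell genes were lower at 2 hours. All 22 markers lay below 0, with a median of -0.32, 8 at an unadjusted p under 0.05 (36.4%, against 3.25% of all genes) and 10 in 4 of 4 animals (background 8.25%). The mean difference was -0.31, -0.29, -0.08 and -0.65 in LG04, LG11, LG12 and LG15. BCL11B, a transcription factor needed for T-cell commitment, stood at 383, 351, 639 and 572 CPM at 30 minutes and at 224.6, 261, 446 and 316 CPM at 2 hours. It was lower in 4 of 4 animals (-0.64 ± 0.13), with overlap since LG12 at 2 hours stayed above LG04 and LG11 at 30 minutes, and DESeq2 called it lower (adjusted p = 0.0214; up to 1 over the alternatives). CD5, which restrains T-cell receptor signalling, stood at 88.1, 86.4, 86.9 and 137 CPM and then at 51.8, 58.8, 67.0 and 64.0 CPM (-0.70 ± 0.14). CD5 and CD6 (-0.48 ± 0.12) did not overlap between the times, as 42 of all genes (0.377%) did not in this direction. TCF7 (-0.59 ± 0.12) and LEF1 (-0.71 ± 0.17), transcription factors of naive and memory-precursor T cells, and the costimulatory receptor CD28 (-0.55 ± 0.13) were lower in 4 of 4 animals, and CD3E gave -0.32 ± 0.12. Without LG15 the median of the list was -0.19. T-cell marker sums ran from 2435 to 3692 CPM at 30 minutes and from 1860 to 3118 CPM at 2 hours.

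B-cell genes were lower at 2 hours, with the mean difference of the list below 0 in 3 of the 4 animals. All 14 tested markers lay below 0, with a median of -0.74. Of these, 11 had an unadjusted p under 0.05 and 8 were lower in 4 of 4 animals (background 8.25%). The mean difference was -1.26, -0.65 and -1.24 in LG04, LG11 and LG15, but 0.07 in LG12. MS4A1, which encodes CD20, stood at 132.6, 69.0, 306 and 86.8 CPM and then at 52.4, 57.0, 261 and 31.5 CPM (-0.79 ± 0.23). LG12 held the most MS4A1 at both times. The complement receptor CR2 stood at 46.4, 20.8, 61.5 and 49.5 CPM and then at 18.7, 14.7, 42.5 and 15.3 CPM (-0.97 ± 0.22), and PAX5, the transcription factor that fixes B-cell identity, gave -1.02 ± 0.26. Each of these was lower in 4 of 4 animals with overlap between the times. Without LG04 5 B-cell markers had an unadjusted p under 0.05, and without LG15 6. BACH2, a transcription factor of B and T cells called lower by DESeq2, stood at 111.5, 100.2, 312 and 138.7 CPM and then at 53.0, 65.2, 242 and 72.6 CPM (-0.74 ± 0.14). Plasma-cell markers gave a median of -0.12 over 5 tested genes (0.065 without LG04).

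Regulators of signalling and of the cell cycle were among the lower genes that DESeq2 called. DUSP4, a phosphatase that switches off MAP kinases, stood at 44.0, 22.1, 41.7 and 101.7 CPM at 30 minutes and at 22.8, 14.4, 22.2 and 35.8 CPM at 2 hours (-1.0 ± 0.17). The polo-like kinase PLK2 stood at 29.5, 24.8, 123.3 and 55.0 CPM and then at 16.4, 17.1, 35.5 and 19.1 CPM (-1.18 ± 0.23). Both were lower in each animal and overlapped. RGS1, which damps chemokine receptor signalling in lymphocytes, gave -0.68 ± 0.13, and CDC25B, a phosphatase that activates cyclin-dependent kinases, -0.75 ± 0.12. RTKN2 stood at 45.1, 41.0, 58.6 and 55.1 CPM and then at 27.1, 26.7, 33.9 and 31.5 CPM, without overlap (-0.73 ± 0.12). TNFAIP3, the gene of A20, an inhibitor of NF-kB signalling, stood at 282, 397, 428 and 397 CPM and then at 222.9, 229, 282 and 215 CPM (-0.65 ± 0.13). The highest 2 hour level, that of LG12, was close to the lowest 30 minute level, that of LG04. Of the genes DESeq2 did not call, SLC15A2, a peptide transporter (-0.97 ± 0.18), ITGA1, a subunit of a collagen-binding integrin (-0.79 ± 0.17), the glycosyltransferase gene GCNT4 (-0.82 ± 0.16), PLCL1 (-0.68 ± 0.13) and CDON (-1.01 ± 0.21) were lower in 4 of 4 animals.

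NF-kB target genes lay on both sides of 0. TNFAIP3 and BIRC3 (-0.69 ± 0.18) were lower, while the mitochondrial superoxide dismutase SOD2 (0.50 ± 0.11), the inflammasome sensor NLRP3 (0.80 ± 0.26) and the inducible cyclooxygenase PTGS2 (0.78 ± 0.26) were higher. PTGS2 stood at 20.4, 47.6, 2.83 and 21.1 CPM and then at 23.6, 62.6, 11.7 and 48.2 CPM, higher in 4 of 4 animals with overlap. Over 13 tested members of 21 the median was 0.41, with 3 higher and 2 lower at an unadjusted p under 0.05. The list holds genes of monocytes as well as lymphocytes; with the monocyte markers in the fit its median was -0.01, and 1 gene was higher at an unadjusted p under 0.05 without LG15 and 5 without LG11.

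Trafficking genes also split. Chemokine receptors steer leukocytes between blood and tissue, and S1PR1 lets lymphocytes leave lymph nodes. The monocyte receptors CCR2 (above) and CCR1 (1.61 ± 0.45) were higher in 4 of 4 animals, CCR1 from 1 count in LG12 at 30 minutes. The lymphocyte receptors CCR4 (-0.95 ± 0.26), CXCR4 (-0.47 ± 0.15), CCR9 (-0.82 ± 0.33) and CXCR5 (-0.49 ± 0.21) were lower, CCR9 in 3 of 4 animals and the others in 4 of 4. Without LG04 or LG15, 2 receptors were lower at an unadjusted p under 0.05. S1PR1 stood at 189.6, 121.9, 202.6 and 277 CPM at 30 minutes and at 161.3, 97.3, 115.6 and 162.7 CPM at 2 hours (-0.53 ± 0.14). It was lower in each animal, with overlap. Of 11 egress and homing genes 9 lay below 0, with a median of -0.28, and FOXO1, a transcription factor that maintains these receptors in T cells, gave -0.41 ± 0.14; 3 of the list were lower at an unadjusted p under 0.05, and 1 without LG15.

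Genes tied to iNKT cells lay on both sides of 0. The median of 15 tested members was 0.04, with 9 above and 6 below 0. It was -0.075 when counts were scaled to library size alone and -0.065 when LG11 was left out. The mean difference was 0.113, 0.162, 0.145 and 0.014 in LG04, LG11, LG12 and LG15. IL12RB2, ZBTB16 and KLRB1 (0.49 ± 0.15) were higher at an unadjusted p under 0.05 (20% of the list, against 4.72% of all genes). GATA3 was lower (6.67%, against 3.25%). ZBTB16, which encodes PLZF, the transcription factor of iNKT cells that glucocorticoids also induce, stood at 13.4, 13.0, 2.43 and 11.1 CPM and then at 22.5, 13.3, 8.83 and 25.8 CPM (0.82 ± 0.28). It was higher in 4 of 4 animals, hardly so in LG11. The interleukin 12 receptor chain IL12RB2 stood at 27.8, 19.3, 19.4 and 20.9 CPM and then at 40.3, 39.7, 23.2 and 32.0 CPM (0.63 ± 0.17). GATA3, of the T-helper 2 programme, was lower in 4 of 4 animals (-0.46 ± 0.18). TBX21, which encodes T-bet of the T-helper 1 and NK programme, gave 0.09 ± 0.14 and was -0.033 when counts were scaled to library size alone. CD1D gave 0.61 ± 0.31. Interferon gamma (IFNG) was too low to be tested, with 11, 16, 1 and 22 counts at 30 minutes and 5, 35, 7 and 2 counts at 2 hours. The chemokine CCL5 stood at 102, 54.4, 30.7 and 133.3 CPM and then at 167.3, 74.4, 57.7 and 163.7 CPM (0.58 ± 0.13), higher in 4 of 4 animals.

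Activation and immediate-early genes, which lymphocytes induce within minutes to hours of receptor stimulation, were not higher as a group. CD69, an early activation antigen that keeps cells in tissue by opposing S1PR1, stood at 117.1, 234.8, 264 and 222.5 CPM and then at 91.0, 167.4, 156.3 and 65.4 CPM (-0.82 ± 0.22). Every animal was lower. Among 20 immediate-early genes 10 lay above and 10 below 0, with a median of -0.02, and 3 were lower at an unadjusted p under 0.05. That split depended on the fit: 15 of 20 lay below 0 without LG12 (median -0.093, 5 lower at an unadjusted p under 0.05), 17 without LG12 and LG15 together (-0.26) and 18 with the monocyte markers as a covariate (-0.32). The 3 were DUSP2 (-0.84 ± 0.19), IER5 (-0.57 ± 0.16), which did not overlap, and FOS (-0.53 ± 0.17). NR4A2 gave -0.17 ± 0.14, EGR2 0.37 ± 0.36 and NR4A1 0.11 ± 0.21. NR4A1 was -0.13 without LG12 and -0.005 when counts were scaled to library size alone. The checkpoint receptor CTLA4 gave -0.47 ± 0.18. Among cAMP-responsive genes the phosphodiesterase PDE4B (-0.47 ± 0.17) and the kinase SIK1 (-0.32 ± 0.13) were lower and RGS2 (0.60 ± 0.13) higher, each in 4 of 4 animals.

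Interferon-stimulated genes, induced by type I interferon as antiviral effectors, were slightly higher. Of 29 tested, 23 lay above 0, with a median of 0.21. Of the 29, 8 were higher in 4 of 4 animals (background 8.43% of all genes) and 0 were lower in 4 of 4 (background 8.25%). IFIT1 stood at 188.9, 22.9, 3.64 and 10.1 CPM and then at 320.8, 30.7, 5.96 and 19.6 CPM (0.70 ± 0.14). All animals were higher at 2 hours, while LG04 held many times the level of the others at both times. MX1 (0.50 ± 0.14), IFI6 (0.44 ± 0.18) and USP18 (0.97 ± 0.31) completed the 4 members higher at an unadjusted p under 0.05 (13.8%, against 4.72% of all genes). When counts were scaled to library size alone the median was 0.094, with 2 such members. Without LG12 and LG15 together it was 0.30, with 9. Genes of the interferon gamma response gave a median of 0.24 (0.091 without LG12) with 0 of 13 at an unadjusted p under 0.05 (4 higher without LG15), and CXCL10 gave 0.47 ± 0.28.

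The medians of lists of stress hormone, clock and temperature genes lay close to the median of all genes, apart from chaperones. Glucocorticoid-induced genes gave a median of 0.01 that changed sign under 8 of 18 alternatives. FKBP5, CD163 and ZBTB16 were higher at an unadjusted p under 0.05 (21.4% of the list, against 4.72% of all genes). CXCR4 was lower (7.14%, against 3.25%). The mean difference of the list was 0.18, 0.04, 0.66 and 0.26 in LG04, LG11, LG12 and LG15. TSC22D3 gave -0.13 ± 0.18 and PER1 0.01 ± 0.23. The 16 clock genes tested gave a median of -0.03, and NFIL3, a repressor that also directs NK-cell development, was the member at an unadjusted p under 0.05 (0.68 ± 0.15). Heat-shock and chaperone genes gave a median of -0.20, with 17 of 20 below 0 and 7 lower in 4 of 4 animals (background 8.25%). HSPH1 gave -0.32 ± 0.18 and FKBP4 -0.76 ± 0.20, and the median of the list was -0.11 without LG12 and -0.12 without LG15. The cold-inducible RBM3 gave 0.23 ± 0.12. Glycolysis genes gave a median of 0.28, with 2 at an unadjusted p under 0.05 (11.1% of the list, against 4.72% of all genes). These were LDHA (0.36 ± 0.11, higher in 4 of 4 animals) and PFKFB3 (0.81 ± 0.27, higher in 3 of 4). The mean difference was -0.04, -0.05, 0.51 and 0.48 in LG04, LG11, LG12 and LG15. Without LG12 and LG15 together the median was 0.014. At an unadjusted p under 0.05 there were 8 genes without LG04 and 1 without LG15, where the median was 0.17.

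Cells that a density gradient should remove or that are not mononuclear went different ways in different animals. The neutrophil sum went from 7798 to 1052 CPM in LG04, from 567 to 717.5 in LG11, from 118.5 to 125 in LG12 and from 2841 to 2619 in LG15. The lactoferrin gene LTF alone went from 4583 to 451 CPM in LG04 and from 1774 to 1103 CPM in LG15, so it weighs on these sums. The mean difference of the neutrophil markers was -2.22, 0.42, -0.355 and 0.66 in LG04, LG11, LG12 and LG15. Their median was -0.20, with 1 gene higher and 1 lower at an unadjusted p under 0.05. Without LG04 the median was 0.62, with 7 higher, and without LG15 it was -1.02, with 1 higher and 3 lower. The platelet sum went from 2898 to 6285 CPM in LG04 and from 1755 to 4942 in LG15, but from 666 to 172 in LG12 and from 222.9 to 294 in LG11. Platelet markers gave a median of 0.40, with 1 of 10 at an unadjusted p under 0.05, 10 of 10 without LG12 and 0 without LG04 or LG15; the median was 1.01 without LG12, 0.077 without LG04 and 0.05 without LG15. Red-cell markers had a median of 0.27 with mean differences of 0.58, -1.29, -0.36 and 1.40, and the median was -0.16 without LG15 and 0.86 without LG11. The part of these cells in the differences described above was not tested.

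**Figure D5:**
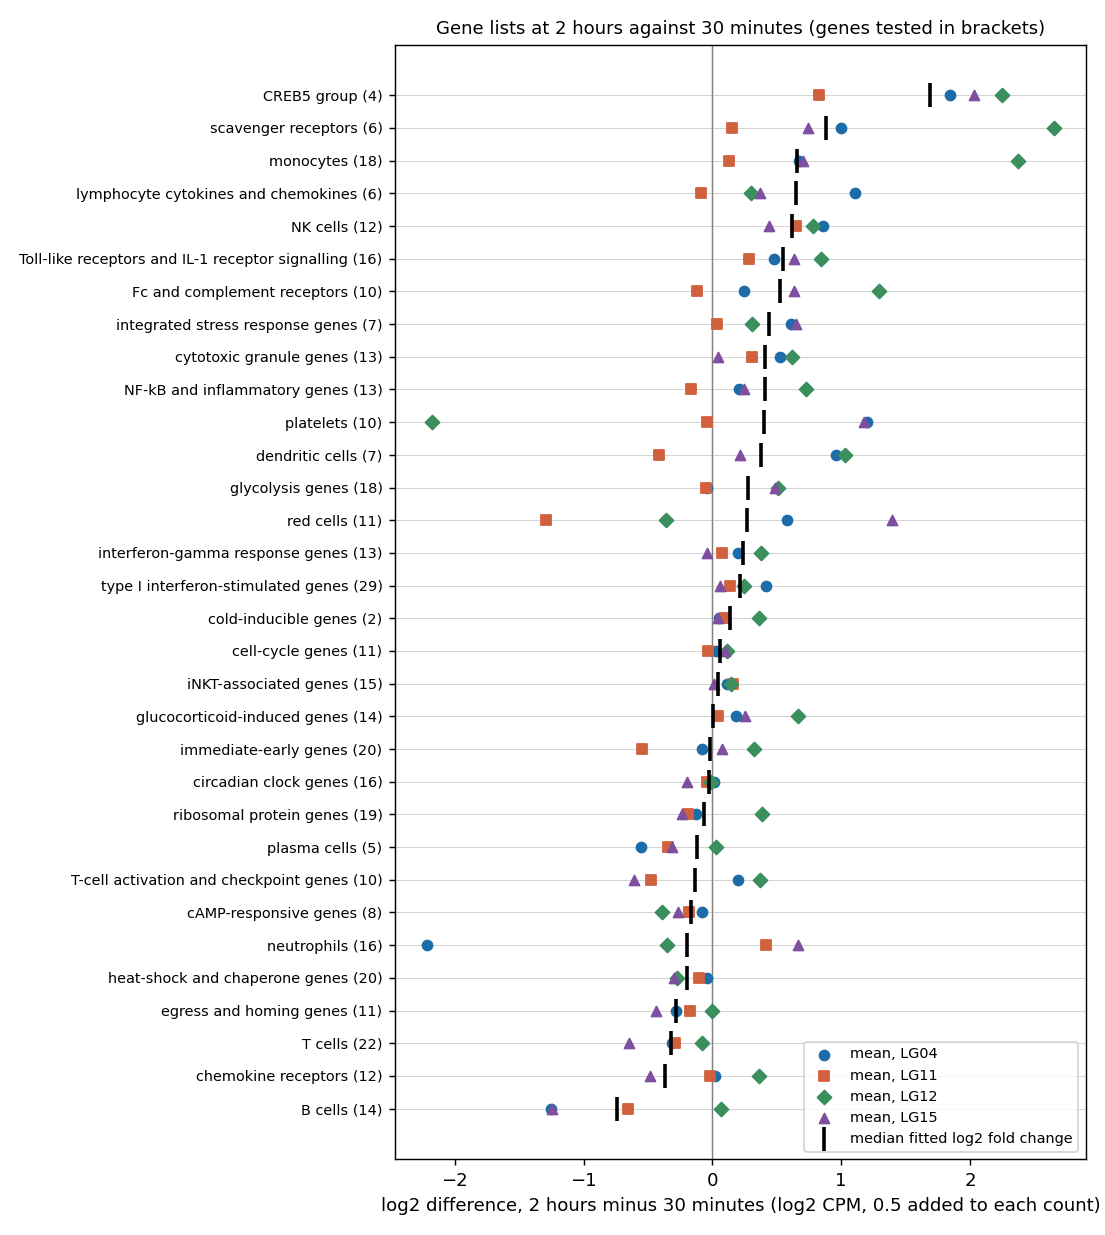
Mean log2 difference between 2 hours and 30 minutes in each animal (coloured symbols, log2 CPM with 0.5 added to each count) and median fitted log2 fold change (black bar) for each gene list with at least 2 genes tested, their number in brackets. All 4 animals lie above 0 for NK cells and Toll-like receptors and below 0 for T cells, LG12 lies apart for monocytes (2.37) and platelets (-2.17), and LG04 for neutrophils (-2.22).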

How the data were processed

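RNA of PBMC was sequenced from 4 animals at 30 minutes and at 2 hours after NKTT320, and groups were taken from the sample titles. The authors deposited whole-number counts per gene, not normalized, in a table per animal and time. Tools listed in the submitters' processing notes are STAR, HTSeq, Trimmomatic, FastQC, edgeR and DESeq, and the builds are hg19 and GRCh37, which are human. Not given in the sources used here are the aligner settings, the strand setting and the annotation. Reads of macaque RNA were thus assigned to human gene models. A gene that differs between the species can be undercounted, overlapping genes on opposite strands are uncertain, and near copies (GZMB with GZMH, HBA1 with HBA2, FCGR2A with FCGR2B, KLRC genes, NAIP) may share reads. A gene listed at 0 in every library may reflect the counting.

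Entries of the same symbol were summed (24369 entries, 23602 symbols). In the series-wide tables, 7 of 8 columns held the same values as the table per animal, and the 2 hour column of LG04 held those of its 1 day library, so the tables per animal were used. The number of columns without a sample was 0. No pair of libraries agreed within sampling noise (smallest chi-square per gene 10.4 over 28 pairs).

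Genes passing filterByExpr were tested with edgeR 4.0.16 (R 4.3.3) by its quasi-likelihood test, using TMM factors and a model of animal and time (3 residual degrees of freedom). P-values were two-sided and adjusted over all genes tested (Benjamini-Hochberg), and 0.05 was the threshold. Each animal is its own pair because it was bled at both times; deviations of its libraries from the time means correlated at 0.536 to 0.817. The SE is the log2 fold change divided by the square root of the F statistic. The script was tested on simulated data. The SE rests on the dispersion estimated in that fit, so it also holds variation among animals that is left after pairing. Floors of 3 counts stand for counting depth only, and reads are not independent molecules.

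The libraries, gene lists and panel were chosen with earlier results of these data known. Named genes were the 15 with the smallest p in each direction among those with the same direction in 4 of 4 animals and a mean of at least 10 CPM at either time, since edgeR called none. Members of the 33 lists at an unadjusted p under 0.05 or used as defining markers and a fixed panel of genes were named too. The other genes that DESeq2 (1.42.0) called, and CSF1R, IRAK2 and IRAK4, were named after their values were seen. Alternatives covered scaling, filters, DESeq2, limma-voom (limma 3.58.1), covariates, and leaving out libraries. Promoter sequence and the libraries from before dosing were not analysed here, and the 1 day libraries enter in 1 alternative fit. A result on 1 marker gene is not reported here.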

Additional observations from a re-analysis of the deposited data

Results flagged for a closer look

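LG12 gave each of the 7 values that stood apart from the other 3 animals by Dixon's ratio, among 99 sets of 4 values examined; chance alone flags about 1 in 20 such sets. At 30 minutes the mean log2 CPM of LG12 was -0.33 for scavenger receptors (3.89 to 4.48 in the other animals), 2.13 for Fc and complement receptors (5.14 to 5.36), 4.12 for NF-kB and inflammatory genes (5.42 to 5.66) and 3.79 for interferon-gamma response genes (4.92 to 5.10). At 2 hours it was 5.08 for monocyte markers (6.96 to 7.29) and 3.91 for Toll-like receptor and interleukin 1 receptor genes (5.16 to 5.42). The difference between 2 hours and 30 minutes of the 2 cold-inducible genes was 0.36 in LG12 and 0.04 to 0.10 in the others.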

How the results depend on the processing

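Of the 18 alternatives, 15 left the count at 0 genes called, as in the main fit. The exceptions were DESeq2 (25 genes, 17 higher and 8 lower), edgeR without the filter on low counts (157, 111 higher and 46 lower) and edgeR scaled to library size alone (4, all higher: EMR1, NRG1, CREB5 and CD163). The newer quasi-likelihood method of edgeR without the filter, chosen after seeing the data, called 0, and the cause of the difference from 157 was not tested. Scaling to library size alone moved the median of all genes from 0.01 to -0.11 and the share above 0 from 51.8% to 32.5%; the NK-cell median was then 0.48 and the T-cell median -0.44.

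Leaving out each animal in turn kept the count at 0, with 580 to 1292 genes at an unadjusted p under 0.05. With no replicate block the paired libraries were compared as separate samples; 0 genes were called and 90 had an unadjusted p under 0.05. Without LG12 and LG15 together, chosen after seeing the data, the counts were 0 and 1091, and the monocyte median was 0.40. Of 143 genes followed, 131 kept their direction in each alternative that gave them a value, which was all 18 for 118 of them and 15 to 17 for the other 13. With the monocyte markers as a covariate the direction was opposite for EGR2 (-0.31), NR4A1 (-0.39), CD14 (-0.60), PER1 (-0.46), HSPH1 (0.083), FCN1 (-0.14), CD36 (-0.078), MSR1 (-0.055), C5AR1 (-0.005) and PAPSS2 (-0.31). PER1 was -0.024 with upper-quartile factors, -0.12 with library size alone, -0.021 with limma-voom, -0.035 with no replicate block and -0.038 in a fit of the 12 libraries after dosing. With library size alone TBX21 was -0.033 and NR4A1 -0.005. Leaving out each animal in turn gave PER1 -0.155 (without LG12) to 0.319 (without LG11), NR4A1 -0.134 (without LG12) to 0.247 (without LG15) and TSC22D3 -0.252 (without LG12) to 0.046 (without LG15). Without LG12 and LG15 together NR4A1 was -0.066 and PER1 -0.41. The basophil list, with 1 tested gene, had no value in 3 alternatives. Depth limits low genes: 3 counts were worth 1.43 CPM in LG15 at 2 hours and 1.21 CPM in LG12 at 30 minutes.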
